A study of Mus musculus with 57 samples.

Results

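Developmental homeobox genes outside the Hox clusters were followed through the blood-forming tissues of mice that carry a leukemia transgene. The members were the 71 genes of the array annotation whose symbol begins with Dlx, Emx, Otx, Lhx, Nkx, Pax, Irx, Msx, Barx, Tlx, Pitx, Alx, Prrx or Lbx and a number, or belongs to the sine oculis homeobox genes (Six2, Six3, Six3os1, Six4, Six5 and Six6). Dlx1, Emx2 and Pax5 were left out. The members are 71 of the 18166 genes that a probe set measured alone. They fall into 15 families, and 9 of them are noncoding RNAs named for a neighbouring member, such as Dlx4os and Otx2os1.

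Leukemia arose in these mice from fusion genes driven by the vav promoter, which is active in blood-forming cells. CA10 mice carried vav-CALM-AF10 and NHD13 mice carried vav-NUP98-HOXD13. The 57 arrays form 14 groups. Spleen with clinical leukemia came from CA10 mice (6 arrays) and NHD13 mice (6). Spleen of CA10 mice without clinical signs, called healthy here, gave 5 arrays and wild-type spleen 2. The other transgenic tissues were all from mice without clinical signs. Marrow depleted of mature blood cells, called lineage-negative, was taken from each genotype (3 arrays apiece). For whole marrow there are 3 CA10, 3 NHD13 and 6 wild-type arrays and 3 of a further wild-type group labelled C57B6. For thymus there are 4 CA10, 3 NHD13 and 7 wild-type arrays. The mice were not treated. Wild-type tissue came from littermates of matched age where possible. Neither the ages nor the strain of the groups other than C57B6 appear in the labels. The labels do not say that the arrays of a group came from separate mice, so a p-value here reflects only how much these arrays vary, which may be technical.

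Most coding members of these families encode transcription factors that bind DNA through a homeodomain. Such factors set the identity of body regions and organs in the embryo. Dlx, Otx, Emx and Lhx proteins are known for the forebrain and limbs, sine oculis and Pax proteins for the eye, ear, kidney and glands, and Nkx proteins for the heart, thyroid, gut and spleen. Some are named for a paired domain (Pax) or for a pair of LIM domains beside the homeodomain (Lhx). Some of the genes were found in human leukemia through translocations, TLX1 and TLX3 in T cell leukemia among them. In adult blood-forming tissue most are silent, and a few are used by the stroma of spleen and thymus.

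All values are log2 signals of 1 probe set per gene, the set with the highest mean where a gene has several. Of the members, 45 have 1 probe set and 26 have more. A gene was tested if 3 or more arrays placed it over their own 40th percentile, which held for 51 members and not for 20. The 40th percentile lay between 4.90 and 5.49. The untested members include Dlx5, Lhx5, Lhx6, Lhx8, Nkx2-2, Nkx3-2, Otx1, Otx2 and Six6. Only 16 members lay above the 40th percentile on every array, and 51 of the 71 varied by less than 2 log2 units over all 57 arrays. Most of the members were thus measured near the low end of the arrays.

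Certain arrays stood apart before any comparison. The signals of 10 arrays were narrow, with a 75th percentile of 6.90 to 7.15 where the other 47 had 7.26 to 7.72. They are wild-type thymus 6, the third array of every lineage-negative group, all CA10 whole marrows and numbers 4 to 6 of the wild-type whole marrows. The mean of the 71 members was 5.18 to 5.80 on them and 4.64 to 5.10 on the rest, and 56 members had their highest value on a narrow array. NHD13 lineage-negative array 3 alone was the highest for 28 members, and its Gapdh control probe sets were 2.95 log2 units higher at the 3′ than at the 5′ end. That gap, a sign of RNA quality, was 2.09 on healthy CA10 spleen 1, 1.36 on C57B6 marrow 2 and 0.85 on NHD13 leukemic spleen 5, and -0.11 to 0.63 on the remaining arrays. Wild-type thymus 2 was low in thymic epithelium genes, with a mean of the 8 marker genes of 5.38 against 6.94 to 8.76 on the other thymus arrays. Its T cell list stood at 8.61 and its B cell list at 9.55. On the other 6 wild-type thymuses the T cell list ran from 10.80 to 11.79, and myeloid granule genes stood at 12.27 to 12.94 in wild-type whole marrow. Among the healthy CA10 spleens, arrays 1 and 3 had the granule list at 12.55 and 12.38, against 6.87 to 9.38 on the other 3 and 11.21 to 13.07 in CA10 leukemia. Their stem and progenitor list, at 8.96 and 9.15 against 7.17 to 7.30, was also in the range of CA10 leukemia (8.25 to 9.42). Healthy CA10 spleen 4 and CA10 leukemic spleen 3 carried both measured genes of the exocrine pancreas, Cela1 at 12.84 and 11.13 and Cpa1 at 12.71 and 10.72.

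**Figure D1:**
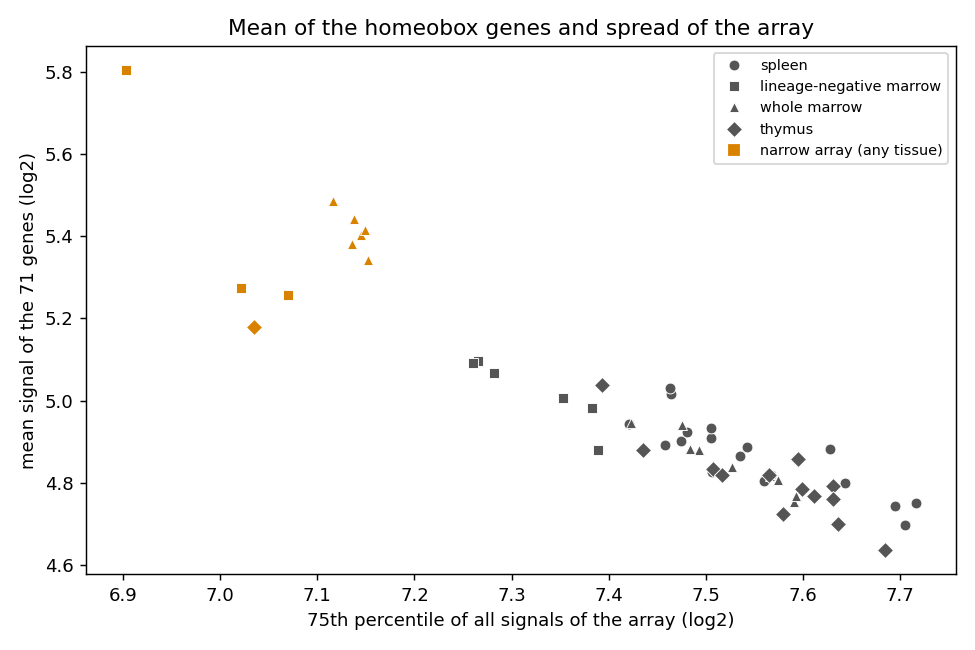
Mean log2 signal of the 71 homeobox genes on each array against the 75th percentile of all log2 signals of that array; each point is 1 array, its shape gives the tissue, and orange marks the 10 narrow arrays. The narrow arrays lie at the upper left, with a mean of the genes from 5.18 to 5.80, and the other 47 lie between 4.64 and 5.10.

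The sequences before 3 of the genes named below are shown to place them. Lhx2 differed in NHD13 thymus, Nkx2-3 is a spleen gene that was lower in NHD13 leukemia, and Pax6 was high in a single leukemia. All come from RefSeq on GRCm38.p6, in which all 71 members have a position and 48 have a promoter window. The plus strand before the start of the annotated gene is given, with capitals for TAAT, the core that many homeodomains bind, or GGGCGG, a GC box, each on either strand. The stretches lie at chr2:38339031-38339270 for Lhx2, chr19:43612075-43612324 for Nkx2-3 and chr2:105668646-105668895 for Pax6.
Lhx2: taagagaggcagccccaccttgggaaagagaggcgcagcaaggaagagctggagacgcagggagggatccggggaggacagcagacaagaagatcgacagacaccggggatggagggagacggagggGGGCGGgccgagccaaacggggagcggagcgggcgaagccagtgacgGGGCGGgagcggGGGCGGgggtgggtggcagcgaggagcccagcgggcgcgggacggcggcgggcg
Nkx2-3: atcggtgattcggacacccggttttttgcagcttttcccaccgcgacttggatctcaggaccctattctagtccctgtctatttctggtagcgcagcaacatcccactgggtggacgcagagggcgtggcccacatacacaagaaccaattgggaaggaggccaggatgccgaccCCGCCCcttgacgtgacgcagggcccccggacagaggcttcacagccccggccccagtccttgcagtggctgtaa
Pax6: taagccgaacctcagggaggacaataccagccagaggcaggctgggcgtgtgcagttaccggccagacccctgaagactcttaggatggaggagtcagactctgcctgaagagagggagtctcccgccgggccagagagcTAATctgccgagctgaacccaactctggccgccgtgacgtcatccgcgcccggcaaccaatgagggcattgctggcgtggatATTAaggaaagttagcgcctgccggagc

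The Lhx2 stretch holds 3 copies of GGGCGG and no TAAT, with 72.1% of its bases G or C. The Nkx2-3 stretch holds 1 GGGCGG and no TAAT, and the Pax6 stretch holds TAAT 2 times and no GGGCGG. Over the 58 windows of members, taken as the 250 bases before the start, TAAT was in 51.7%, against 54.9% of all 32851 windows. GGGCGG was in 56.9% of the members' windows against 32.7% of all, and the median share of G and C was 61.6% against 52.4%. These are descriptions of the letters in the windows. Members also sit in pairs in the genome. There are 18 pairs of neighbouring members less than 300 kb apart. Many of them join a gene to a noncoding member, such as Dlx4 with Dlx4os, and some of those overlap. Pairs of coding genes include Dlx3 with Dlx4 (15.2 kb), Tlx1 with Lbx1 (75.7 kb) and Tlx2 with Lbx2 (16.1 kb). Nkx2-9 with Pax9 (78.1 kb) and Six3 with Six2 (36.5 kb) are others.

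Lhx2 was the member that differed in the thymus of NHD13 mice without clinical signs. It encodes a LIM homeodomain factor that is needed for eye, forebrain, hair follicle and fetal liver blood formation, and that expands immature blood cells when forced on in culture. Its 1 probe set read 6.67, 5.74 and 8.66 on the 3 NHD13 thymus arrays. The 7 wild-type thymus arrays ran from 4.04 to 4.65, with a median of 4.23, and the 4 CA10 thymus arrays read 4.98, 4.38, 3.96 and 4.43. All 3 NHD13 values lie above all 11 others, and they differ among themselves by more than the wild-type arrays do (mean 7.02 ± 1.49 SD, n = 3, against 4.26 ± 0.202, n = 7). In limma, Lhx2 was 2.76 ± 0.435 (SE) log2 units higher in NHD13 than in wild-type thymus, a 6.80-fold difference (adjusted p = 0.00898). It was the only 1 of the 51 tested members to pass in that comparison, a share of 1.96%. Of all genes 0.764% passed, 0.398% higher and 0.366% lower. Lhx2 lay above the 40th percentile on 5 of the 57 arrays, among them the 3 NHD13 thymuses. It thus entered the tested set, which needs 3 such arrays, only through the group in which it was high. The tests of Lhx2 are therefore not independent of the filter. CA10 thymus was 2.59 ± 0.482 log2 units below NHD13 thymus (limma, adjusted p = 0.0474). That too was 1 of 51 members, where 0.216% of all genes passed, 0.0261% higher and 0.189% lower.

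The higher level in NHD13 thymus was not carried by a single array. Leaving out each array in turn gave 1.95 to 3.40 log2 units and a limma adjusted p of at most 0.0326. Without wild-type thymus 2 the difference was 2.73. The contrast with CA10 thymus was less firm: without CA10 thymus 1, 2, 3 or 4 or without NHD13 thymus 1, the limma adjusted p rose to 0.0934, 0.136, 0.102, 0.0878 and 0.117, with differences of -2.77, -2.57, -2.43, -2.58 and -2.76. It was also lost without a filter (0.0553), after quantile normalization (0.0666) and in a fit of those groups alone (0.448).

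The NHD13 effect on Lhx2 differed between tissues. NHD13 exceeded wild type by 0.43 log2 units in lineage-negative marrow, by 0.25 in whole marrow and by 2.76 in thymus. For equal effects, limma's F test gave an adjusted p of 0.00199. That test, too, is not independent of the filter, which Lhx2 passed only through NHD13 thymus. Of all genes, 0.856% passed that test. Lhx2 was the only member that passed it, and no member passed limma's same test for CA10, in which 0% of all genes passed. Outside the thymus, Lhx2 was above 5 on 2 arrays. These were NHD13 lineage-negative array 3, at 5.82 and one of the narrow arrays, and NHD13 leukemic spleen 5, at 5.43, where the other NHD13 leukemic spleens read 3.80 to 4.28. In CA10 leukemic spleen it ran from 3.71 to 4.38 and in wild-type whole marrow from 3.73 to 4.12.

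**Figure D2:**
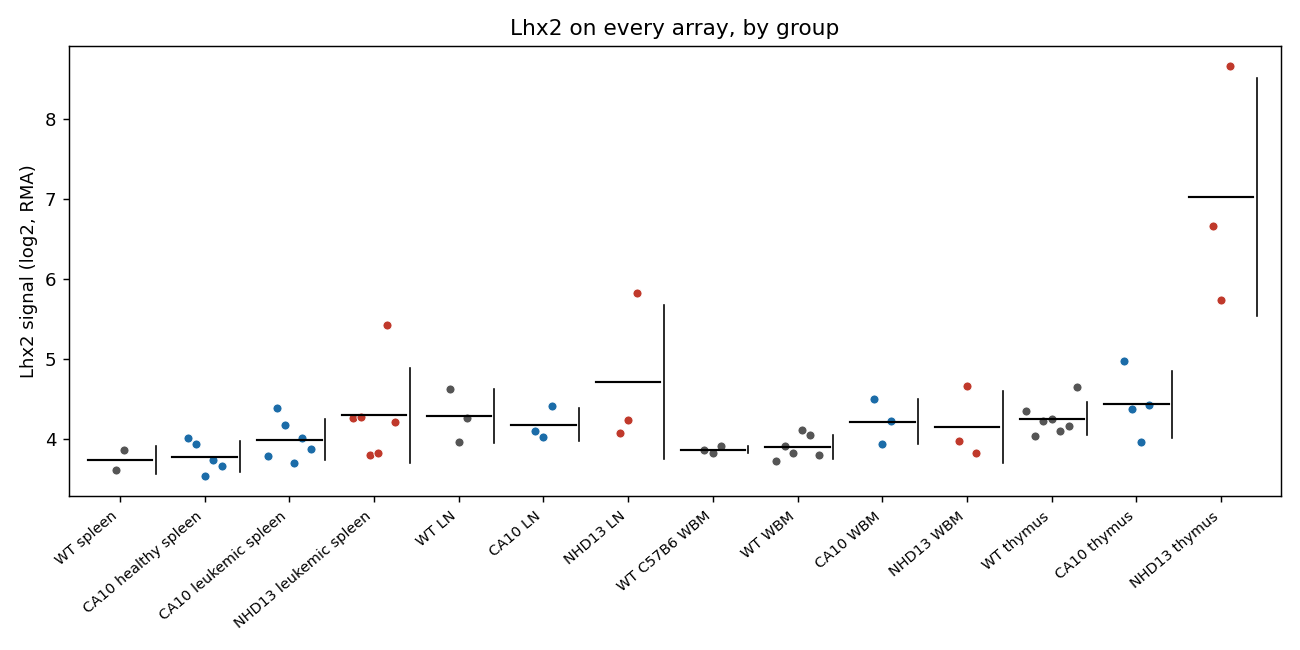
Lhx2 signal (log2) on every array of the 14 groups (LN, lineage-negative marrow; WBM, whole marrow; points, arrays; horizontal lines, group means; vertical lines, ± 1 SD; grey wild type, blue CA10, red NHD13). The 3 NHD13 thymus arrays, at 5.74 to 8.66, lie above all other thymus arrays.

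Of the 4 neuronal markers, Syt1 read 5.09, 5.40 and 5.33 on NHD13 thymus 1, 2 and 3, below all wild-type thymuses (5.70 to 6.99). Tubb3 read 4.59, 5.20 and 3.92, the first 2 values above all wild-type thymuses (3.91 to 4.40). Map2 and Snap25 lay at 4.01 to 4.10 and 3.08 to 3.13, inside the wild-type ranges. The T cell list was lower on the 3 NHD13 arrays (10.45, 9.42 and 8.80) than on 6 of the 7 wild-type arrays (10.80 to 11.79). The part of these markers in the Lhx2 result was not tested. In bulk tissue, fewer cells of a type and less RNA per cell cannot be told apart, here and in all comparisons that follow.

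LIM homeodomain factors work with the adaptor Ldb1 and with Ssbp proteins, Lmo proteins compete for Ldb1, sine oculis factors bind Eya and Dach proteins, and several of the families recruit Tle corepressors. None of these 17 cofactors passed in NHD13 against wild-type thymus or between CA10 and NHD13 thymus. On the arrays themselves, Dach2 read 5.57, 6.15 and 9.62 on NHD13 thymus 1, 2 and 3 against 4.26 to 4.69 in wild-type thymus. Eya1 read 8.11, 8.75 and 9.77, against 4.33 to 7.56 in wild-type and 5.42 to 7.82 in CA10 thymus. Dach2 and Eya1 were picked from the cofactors after their values were seen. NHD13 thymus 3 was thus the highest thymus array for Dach2 and Eya1 as it was for Lhx2.

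In spleen, the members that differed between NHD13 leukemia and wild type were all lower in the leukemia. The arrays include no spleen of NHD13 mice without clinical signs, so transgene and leukemia cannot be told apart in this comparison. Against wild-type spleen, 8 of 51 tested members fell and none rose, a share of 15.7%, where 31.4% of all genes passed, 19.1% higher and 12.3% lower. The share of members that fell was thus near that of all genes, and no member was among the many that rose. The median difference of the members was -0.18 log2 units and that of all genes 0.04. Signals also spread differently here: NHD13 leukemic spleens had 75th percentiles of 7.54 to 7.72, wild-type spleens 7.42 and 7.51. Averaged over all 71 members, the leukemic spleens read 4.70 to 4.89 and the wild-type spleens 4.94 and 4.93. Leukemia and wild type overlapped in neither measure, and the part of this shift in the lower values was not tested.

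Prrx1, a paired-type factor of limb and facial mesenchyme that also marks fibroblasts, fell the most. It read 6.60 and 6.58 in wild-type spleen, 5.72 to 7.17 in healthy CA10 spleen (median 6.32), 5.30 to 5.99 in CA10 leukemia (median 5.58) and 4.90 to 5.63 in NHD13 leukemia (median 5.18). No leukemic spleen of either kind reached the wild-type values, and healthy CA10 spleen overlapped with wild type and with CA10 leukemia. The difference from wild type was -1.39 ± 0.286 log2 units in NHD13 leukemia (limma adjusted p = 0.00176).

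Tlx1 is the factor without which no spleen forms. Its values were 7.48 and 7.28 in wild-type spleen, 6.73 to 7.43 in healthy CA10 spleen and 5.69 to 6.67 in NHD13 leukemia, which did not overlap with either. It fell by 1.18 ± 0.436 log2 units in NHD13 leukemia against wild type (limma adjusted p = 0.0479). In CA10 leukemia it ran from 4.91 to 7.08, and its difference from wild type of -0.95 ± 0.436 did not pass (limma adjusted p = 0.187). CA10 leukemic spleen 2, the lowest array, also had the lowest mean of the 10 measured stroma markers, at 6.14 against 6.29 to 8.33 on the other spleens. The single markers were not all lowest there. Tcf21 was, at 4.18 against 5.57 to 10.09, while Col3a1, at 9.77, lay above CA10 leukemic spleens 4, 5 and 6 (9.71, 9.48 and 9.33). The part of these markers in the Tlx1 value was not tested.

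Nkx2-3 directs the vessels and marginal zone of the spleen, and Nkx2-5 is expressed in the embryonic spleen as well as in the heart. Nkx2-3 read 6.78 and 6.70 in wild-type spleen and 5.98 to 6.41 in NHD13 leukemia, and fell by 0.58 ± 0.210 log2 units (limma adjusted p = 0.0429). Nkx2-5 read 6.65 and 6.58 in wild-type spleen and 5.61 to 6.08 in NHD13 leukemia, and fell by 0.80 ± 0.182 log2 units (limma adjusted p = 0.00321). Neither gene's NHD13 values overlapped with wild type. The remaining 4 members that fell in NHD13 leukemia did so by less than 0.7 log2 units. Pax9 fell by 0.62 ± 0.187, Irx1 by 0.56 ± 0.165, Six3 by 0.50 ± 0.143 and Msx1 by 0.35 ± 0.123 log2 units.

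These calls rest on 2 wild-type spleens. Nkx2-5 and Prrx1 alone passed with every array left out in turn, with Nkx2-5 at -0.85 to -0.76 and Prrx1 at -1.47 to -1.32 log2 units. Without wild-type spleen 1 these 2 were the members left, without wild-type spleen 2 Pax9 was left with them, and without NHD13 leukemic spleen 1 or 4 the count was 5. In the 8 fits with 1 array left out, Nkx2-3 was lost in 7, Tlx1 in 6 and Msx1 in 5. Tlx1 was also lost without the filter (limma adjusted p = 0.0532) and Msx1 with a trended and robust variance (0.0624). Nkx2-3, Pax9 and Six3 were lost after quantile normalization (limma adjusted p = 0.0565, 0.0664 and 0.0911). The main probe set decides the direction for 2 of the 8 members. Other probe sets gave 0.35 and 0.12 log2 units for Nkx2-3 and 0.19 and 0.13 for Six3, above 0.

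Fewer members differed between CA10 leukemia and wild type. Prrx1 alone fell against wild-type spleen, by 0.99 ± 0.286 log2 units (limma adjusted p = 0.0418), which is 1.96% of the members where 8.11% of all genes passed, 5.68% higher and 2.43% lower. The call was lost without either wild-type spleen or without CA10 leukemic spleen 1, 2, 5 or 6, at -1.03 to -0.93 log2 units and a limma adjusted p of 0.0530 to 0.249. On 2 other probe sets of Prrx1 the difference was 0.01 and 0.13. Against healthy CA10 spleen no member passed in limma, where 6.02% of all genes did (4.19% higher, 1.83% lower), and 3 members had an unadjusted p under 0.05. Prrx1 came nearest, at -0.73 ± 0.212 log2 units with a limma adjusted p of 0.0502, and it passed without healthy CA10 spleen 1 or 3. These are the healthy spleens whose granule and progenitor lists stood at the level of leukemia, and the part of that in the result was not tested. Healthy CA10 spleen did not differ from wild type in any member by limma (0% of all genes; 2 members with an unadjusted p under 0.05).

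**Figure D3:**
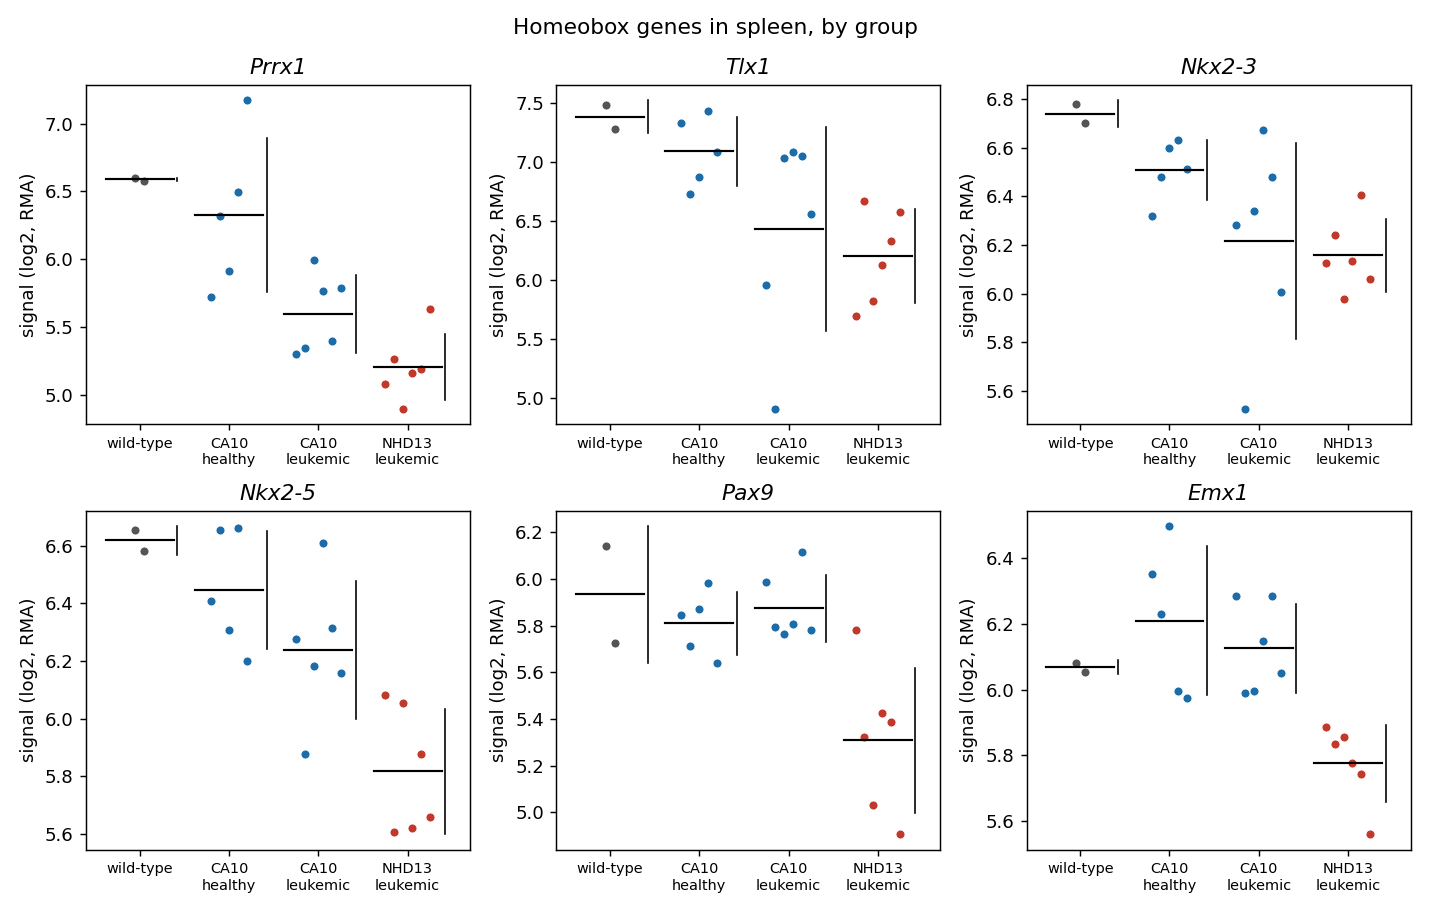
Signal (log2) of Prrx1, Tlx1, Nkx2-3, Nkx2-5, Pax9 and Emx1 on the spleen arrays by group (points, arrays; horizontal lines, means; vertical lines, ± 1 SD; each panel has its own axis). The NHD13 leukemic arrays lie below the 2 wild-type arrays for all genes shown but Pax9, and below the CA10 leukemic arrays for Emx1.

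Markers of splenic stroma and of blood cells also differed in these spleens. The mean of the 10 measured stroma markers was 8.11 and 8.19 in wild-type spleen, 7.34 to 8.33 in healthy CA10 spleen, 6.14 to 7.53 in CA10 leukemia and 6.29 to 7.47 in NHD13 leukemia. Of the 10, 3 fell and 1 rose in NHD13 leukemia against wild type, and 3 fell and none rose in CA10 leukemia, where 12.3% and 2.43% of all genes fell. The other 6 and 7 did not pass. Cxcl13, a chemokine of follicular stroma, fell by 4.14 ± 0.848 log2 units in NHD13 leukemia and by 3.41 ± 0.848 in CA10 leukemia. Madcam1, the addressin of the marginal sinus, fell by 1.69 ± 0.263 and 1.17 ± 0.263, and Wt1 by 1.07 ± 0.346 and 1.16 ± 0.346 log2 units. Cdh5, a cadherin of endothelium, rose by 0.84 ± 0.308 in NHD13 leukemia. All 5 B cell and all 5 T cell genes fell in NHD13 leukemia, and 3 and 2 of them in CA10 leukemia. The mean of the B cell list was 11.67 and 11.91 in wild-type spleen, 4.90 to 6.57 in NHD13 leukemia and 5.81 to 9.84 in CA10 leukemia. Of the 4 myeloid granule genes 3 rose in NHD13 and 1 in CA10 leukemia, with median differences of 4.19 and 3.98 log2 units. The part of these lists in the homeobox results was not tested.

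Between the leukemias, 5 members were higher in CA10 than in NHD13 leukemic spleen and none was lower. This is 9.8% of the members, where 24.7% of all genes passed, 11.7% higher and 13% lower. Pax9, a paired domain factor of pharyngeal pouches and teeth, differed the most, by 0.57 ± 0.132 log2 units (limma adjusted p = 0.00547). It read 5.76 to 6.12 in CA10 leukemia (median 5.80) and 4.91 to 5.78 in NHD13 leukemia (median 5.36), with 1 NHD13 array inside the CA10 range. Emx1, a forebrain factor, read 5.99 to 6.28 in CA10 and 5.56 to 5.89 in NHD13 leukemia without overlap, a difference of 0.35 ± 0.102. Nkx2-5 differed by 0.42 ± 0.129, Nkx2-4 by 0.32 ± 0.113 and Dlx4 by 0.24 ± 0.0804 log2 units, all with overlap.

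Pax9 and Emx1 passed with each of the 12 arrays left out in turn. Nkx2-5 was lost, at 0.35 to 0.39 log2 units, without CA10 leukemic spleen 4 or without NHD13 leukemic spleen 2, 4 or 6. Nkx2-4 and Dlx4 were each lost in 9 of the 12 cases and after quantile normalization, and another probe set of Nkx2-4 gave -0.02. This leaves the pair as the least firm, so that 2 members remained without those 4 arrays and 3 without CA10 leukemic spleen 1 or 5. The mean of all 71 members was 4.80 to 5.03 on the CA10 and 4.70 to 4.89 on the NHD13 leukemic arrays, and the 75th percentile of all signals was 7.46 to 7.64 and 7.54 to 7.72. The part of this shift in these small differences was not tested.

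Of the 17 cofactors, 4 rose and 2 fell in NHD13 leukemia against wild-type spleen, where 19.1% of all genes rose and 12.3% fell, so that these counts are near the background. Dach2 rose by 2.70 ± 0.842, Lmo4 by 1.93 ± 0.368, Eya1 by 1.76 ± 0.635 and Ssbp2 by 1.31 ± 0.263 log2 units, while Ldb1 fell by 0.88 ± 0.300 and Eya3 by 0.39 ± 0.136. In CA10 leukemia Lmo4 rose by 1.36 ± 0.368 and Ssbp2 by 1.06 ± 0.263. CA10 minus NHD13 leukemia was -2.68 ± 0.596 log2 units for Dach2, -2.28 ± 0.449 for Eya1 and -1.05 ± 0.284 for Ssbp3, all of which passed. Dach2 ran from 4.37 to 4.50 over the CA10 leukemias and from 4.74 to 9.28 over the NHD13 leukemias, and the NHD13 values did not overlap with CA10. Ssbp2 and Lmo4 had no overlap between wild type and either leukemia.

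Pax6, Pitx1 and Pax8 were high in individual leukemias, which a comparison of group means does not show. They were chosen after their values were seen and are given as a description. Pax6, the paired domain factor of the eye, brain and endocrine pancreas, read 10.09 in NHD13 leukemic spleen 3. The other NHD13 leukemic spleens read 5.14 to 5.59 and the CA10 leukemic spleens 5.03 to 5.45. A second Pax6 probe set gave the same array 6.92 against 3.42 to 3.79 on the other NHD13 arrays. On the remaining 3 probe sets that array read 4.57, 5.21 and 5.06, where the other NHD13 arrays ran from 4.10 to 4.43, 4.77 to 5.07 and 4.73 to 5.09. That array differed from the other NHD13 leukemias in further markers. Its myeloid granule list stood at 8.56 against 11.85 to 12.83 and its late neutrophil granule list at 9.03 against 12.66 to 13.87, and Gata2 was the highest of the group at 10.11. Of the pancreas genes, Cela1 read 12.38 against 8.30 to 9.67 and Cpa1 4.76 against 4.30 to 4.75. On the arrays with both pancreas genes high, healthy CA10 spleen 4 and CA10 leukemic spleen 3, Pax6 read 4.97 and 5.11. The part of these markers in the Pax6 value was not tested.

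Pitx1, a factor of the hindlimb and pituitary, was high in 3 leukemias of both kinds. It read 7.17 and 7.26 in NHD13 leukemic spleens 2 and 5, against 4.80 to 5.54 in the other 4. In CA10 leukemic spleen 5 it read 6.95, against 4.81 to 5.14 in the other 5. The second probe set of Pitx1 was highest on the same 3 arrays, at 5.34, 6.16 and 5.55, while the remaining leukemias ran from 3.89 to 4.80. Healthy CA10 and wild-type spleens lay between 5.04 and 5.40 on the main probe set.

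Pax8, a factor of thyroid and kidney, was at 5.47, 5.93 and 5.36 in NHD13 leukemic spleens 2, 5 and 6, against 3.92 to 4.81 in the other 3 and 4.06 to 4.81 in CA10 leukemia. Its second probe set read 4.17 to 4.33 on all 6 NHD13 arrays and did not separate these leukemias. NHD13 leukemic spleen 5 was thus the highest NHD13 leukemia for Pitx1, Pax8 and Lhx2. Its Gapdh gap of 0.85, against 0.03 to 0.22 on the other NHD13 leukemias, is given beside this, and its part was not tested. As group means, none of Pax6, Pitx1 and Pax8 passed in any leukemia comparison, with limma adjusted p from 0.197 to 0.992.

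**Figure D4:**
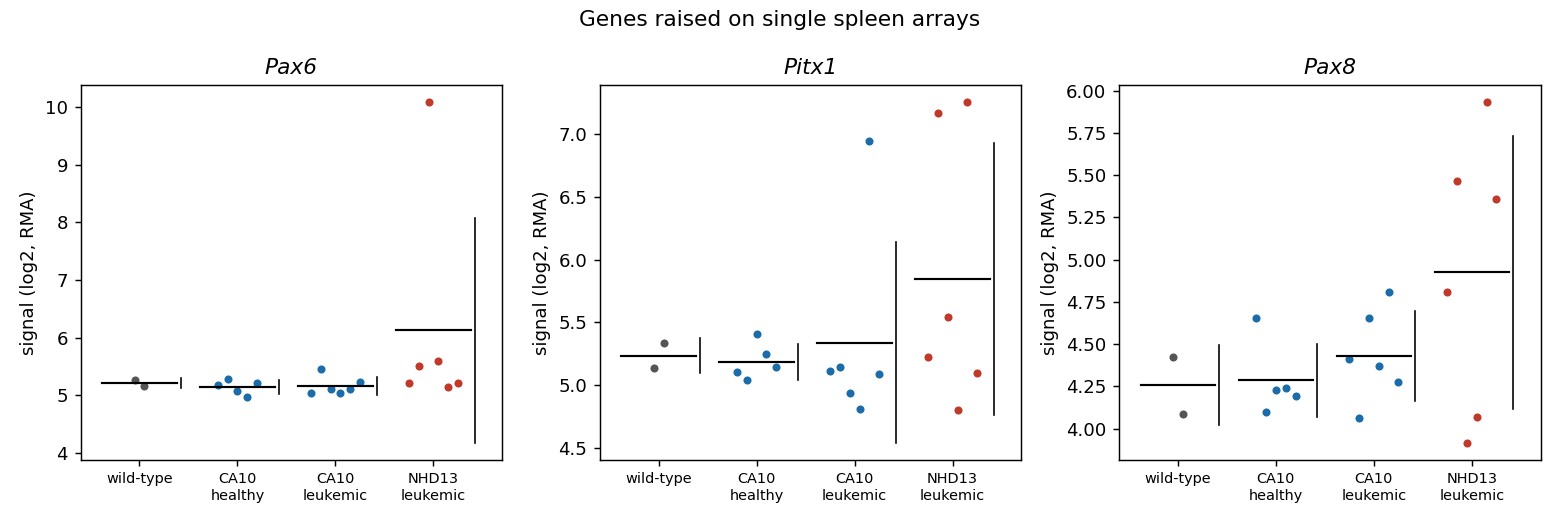
Signal (log2) of Pax6, Pitx1 and Pax8 on the spleen arrays by group (points, arrays; horizontal lines, means; vertical lines, ± 1 SD; each panel has its own axis). Pax6 is high on 1 NHD13 leukemic array at 10.09, and Pitx1 on 2 NHD13 arrays and 1 CA10 array at 6.95 to 7.26.

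Members differed between the tissues of wild-type mice. Thymus exceeded whole marrow in Pax1, Prrx1 and Six4, and 30 members were lower. Together this is 64.7% of the 51 members, where 49.8% of all genes passed, with 25.6% higher and 24.2% lower. Of the 6 whole marrows compared, 3 were narrow arrays on which the members read high. Without narrow arrays, an alternative chosen after the data were seen, 12 members passed, with the share of all genes not given. They were Pax1, Prrx1, Six4, Barx2, Dlx2, Emx1, Lbx2, Lhx1, Nkx2-1, Nkx2-9, Pax8 and Six2.

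Pax1 is needed for the pharyngeal pouch that forms the thymus and stays on in its epithelium. It was 1.27 ± 0.298 log2 units higher in thymus than in whole marrow (limma adjusted p = 0.000470). Six4, expressed with Eya1 in the same pouch, was 0.70 ± 0.183 higher (limma adjusted p = 0.00155), and Prrx1 1.22 ± 0.309 higher (limma adjusted p = 0.00116). Without wild-type thymus 2 these were 1.53, 0.82 and 0.87 log2 units and still passed. Another probe set of Six4 gave -0.09 and another of Prrx1 -0.01. The largest of the lower values was that of Pax8, at -1.40 ± 0.239, and the wild-type thymus and marrow arrays did not overlap. Barx2 (-0.89 ± 0.206), Lhx3 (-0.86 ± 0.229) and Nkx2-4 (-0.83 ± 0.173) followed, but without narrow arrays Lhx3 was at -0.06 and Nkx2-4 at -0.37 and neither passed.

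Pax1 and Six4 varied widely among thymus arrays. Pax1 ran from 4.95 to 7.71 in wild-type thymus (median 6.68), read 6.76, 6.22, 5.82 and 7.66 in CA10 thymus and 7.94, 8.61 and 6.03 in NHD13 thymus. Six4 ran from 4.71 to 5.81 in wild-type thymus (median 5.47), and read 6.47, 7.22 and 5.36 in NHD13 thymus. Neither passed in NHD13 against wild-type thymus: the differences were 1.04 ± 0.601 for Pax1 (limma adjusted p = 0.554) and 0.93 ± 0.348 for Six4 (limma adjusted p = 0.285). The array at each end was the same for both genes, NHD13 thymus 2 the highest and wild-type thymus 2 the lowest.

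The epithelium gene Psmb11, a subunit of the thymoproteasome of cortical epithelium, had the same arrays at its ends, at 10.58 and 4.20. Foxn1, the master factor of thymic epithelium, read 6.69 and 4.21 on them, and Ccl25 13.38 and 5.50. Krt8 read 12.40 and 5.47. Krt5 (9.40 and 6.06) and Aire (6.51 and 5.63) were lowest on wild-type thymus 2 but not highest on NHD13 thymus 2. Krt5 reached 9.60 on CA10 thymus 4, and Aire ran from 6.74 to 7.95 on the other wild-type thymuses. Epcam and Cldn4 went the other way. They read 6.12 and 5.02 on NHD13 thymus 2, the lowest of all thymus arrays, and 6.65 and 5.29 on wild-type thymus 2. Over all 8 epithelium markers the mean was 8.76 on NHD13 thymus 2 and 5.38 on wild-type thymus 2. Prrx1 followed another set of arrays. It was highest on wild-type thymus 2 (8.53) and CA10 thymus 3 (8.33), against 5.38 to 7.43 on the other thymuses, and these are the arrays with the highest stroma lists (8.12 and 8.97) and with Pdgfra, a fibroblast receptor, at 9.16 and 9.96. The part of these cell markers in the thymus comparisons was not tested. The main probe set of Pax9, a partner of Pax1 in the pouch, did not run with Psmb11, but another did, reading 6.82 on NHD13 thymus 2 and 3.58 on wild-type thymus 2.

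**Figure D5:**
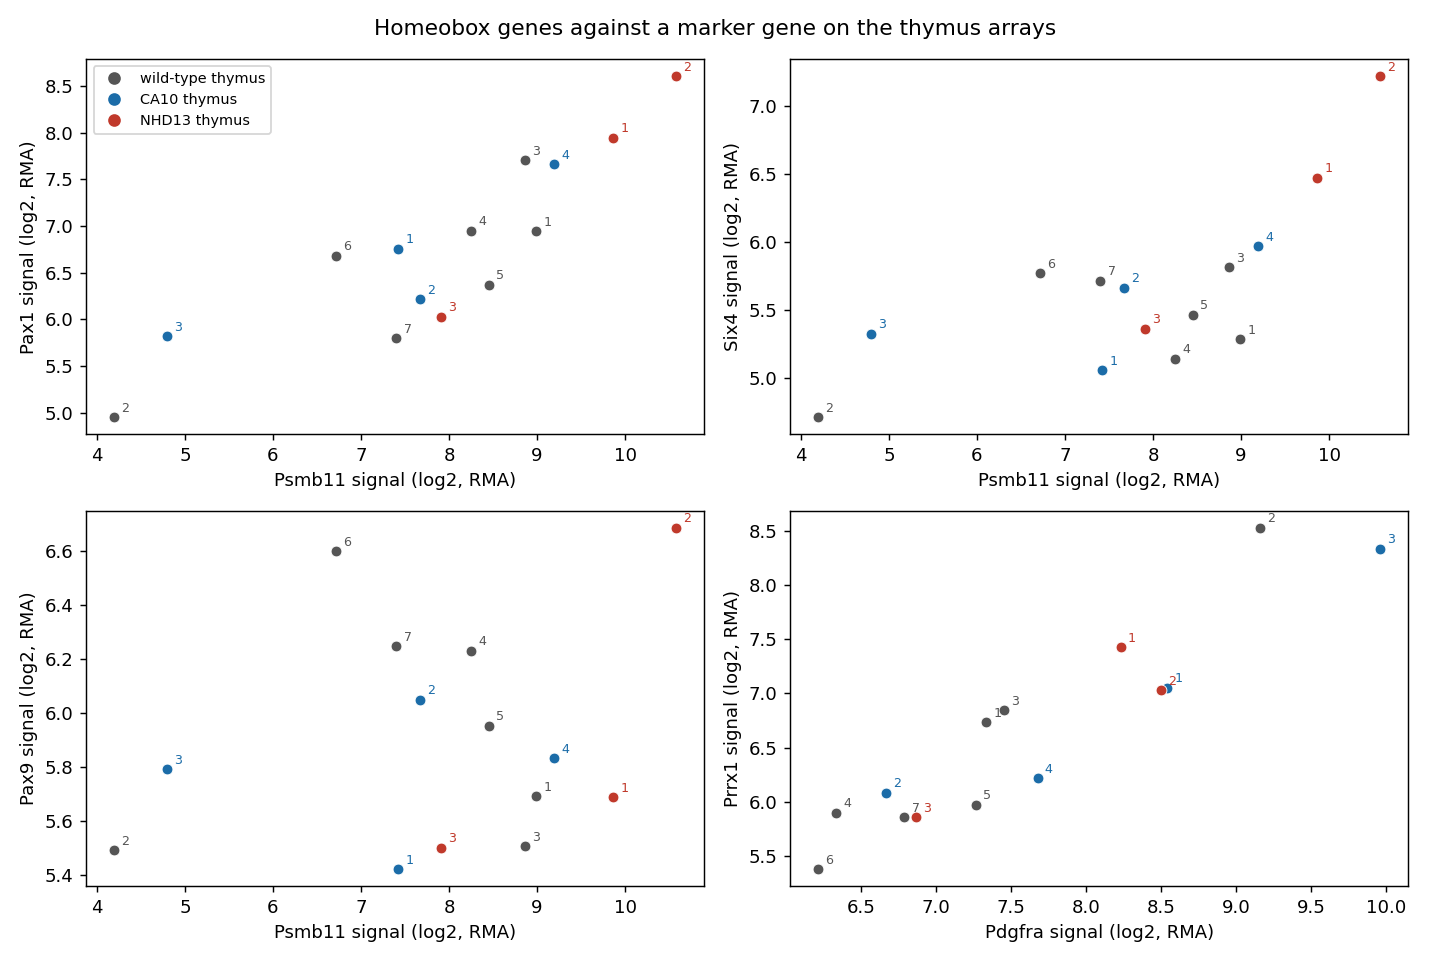
Signal (log2) of Pax1, Six4 and Pax9 against the epithelium gene Psmb11, and of Prrx1 against the fibroblast gene Pdgfra, on the 14 thymus arrays (points labelled with the array's number within its group; grey wild type, blue CA10, red NHD13). NHD13 thymus 2 is highest for Pax1 at 8.61 and Six4 at 7.22, and wild-type thymus 2 and CA10 thymus 3 are highest for Prrx1 at 8.53 and 8.33.

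Spleen exceeded whole marrow in Tlx1 and Prrx1. Of the 51 members, 2 were higher and 2 lower, which is 7.84%, where 10.7% of all genes passed (7.64% higher, 3.08% lower). Tlx1 read 7.48 and 7.28 in spleen and 5.03 to 5.62 in whole marrow, a difference of 2.13 ± 0.355 log2 units and the one that passed whichever array was left out (limma adjusted p = 2.53e-05). Prrx1 differed by 1.35 ± 0.453 (limma adjusted p = 0.0455), while Pax8 (-1.15 ± 0.351) and Lhx1 (-0.71 ± 0.234) were lower. Other Prrx1 probe sets gave -0.02, -0.03 and -0.06 log2 units, and another of Pax8 0.02. Without narrow arrays Prrx1 (1.42), Pax8 (-1.03) and Lhx1 (-0.44) did not pass, and Nkx2-3 and Nkx2-5 did. Without wild-type spleen 1 or 2, Tlx1 was the only member left. Without whole marrow 4, 5 or 6 Tlx1 and Pax8 were left, and without whole marrow 2 the count was 7. Of the 10 splenic stroma markers, 8 were higher in spleen than in marrow, among them Tcf21 by 5.23 ± 0.752 log2 units.

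Lineage-negative marrow differed from whole marrow in 4 of 51 members, 1 higher and 3 lower (7.84%, against 26.3% of all genes, with 14.9% higher and 11.3% lower). Six5, expressed in lens and muscle, read 7.06, 6.84 and 7.08 in lineage-negative and 5.86 to 6.46 in whole marrow of wild-type mice, without overlap (0.80 ± 0.203, limma adjusted p = 0.00204). Pax8 (-0.82 ± 0.304), Dlx2 (-0.68 ± 0.224) and Lhx1 (-0.62 ± 0.202) were lower. Six5 passed with each array left out in turn and was the only member left without lineage-negative array 1 or 2. Pax8 was lost in 8 of the 9 cases, Dlx2 in 3 and Lhx1 in 2. Wild-type whole marrows 4 to 6 and lineage-negative array 3 are narrow, and the count without narrow arrays, given at the end, was higher. Another Pax8 probe set gave 0.45 log2 units.

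In marrow no member passed in any comparison of a transgene with its controls. In limma these were CA10 lineage-negative marrow (0% of all genes passed; 0 members with an unadjusted p under 0.05), NHD13 lineage-negative marrow (0.0588%; 0 members), CA10 whole marrow (0%; 9 members) and NHD13 whole marrow (1.18%, with 0.607% higher and 0.575% lower; 3 members). C57B6 marrow differed from the other wild-type marrow in 19.2% of all genes (14% higher, 5.2% lower) and in no member by limma, with 11 members at an unadjusted p under 0.05 and Pax9 nearest (adjusted p = 0.0567). Without whole marrow 1, 2, 3 or 5 that count of members was 3, 7, 3 and 1. CA10 thymus, too, had no member that passed against wild-type thymus (0% of all genes; 4 members with an unadjusted p under 0.05).

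The choice of marrow control set the count for these genes. With wild-type whole marrows 1 to 3 as controls, 37 members passed in CA10 whole marrow, and with C57B6 marrow 27. NHD13 whole marrow had 34 with wild-type marrows 4 to 6 and 1, Dlx2, with C57B6 marrow. In each of these pairings with a count of 27 or more, one side consisted of narrow arrays and the other did not. The share of all genes that passed with these controls is not given, so the counts are not read as particular to the members. With all 6 controls, 45 of 51 members lay above 0 in CA10 whole marrow with a median of 0.33 log2 units, and 46 lay below 0 in NHD13 whole marrow with a median of -0.28. The median of all genes was -0.06 and 0.02.

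Among the cofactors, 4 of 17 rose in NHD13 whole marrow, where 0.607% of all genes rose, and they are named here after their values were seen: Dach2 by 3.36 ± 0.267, Eya1 by 1.76 ± 0.376, Eya4 by 1.26 ± 0.249 and Ssbp2 by 0.95 ± 0.182 log2 units. Dach2 read 7.32, 7.17 and 8.91 in NHD13 and 4.37 to 4.56 in wild-type whole marrow. Eya1 read 5.32, 6.52 and 7.87 against 4.53 to 4.93, and for both genes these groups did not overlap. In the C57B6 marrows, which are also wild type, Eya1 read 5.74, 5.22 and 6.50 and overlapped with NHD13. Dach2 read 4.56, 4.66 and 4.64 there and did not.

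The highest member of each family by its mean over the groups in most cases varied by less than 2 log2 units over all arrays. Msx1, a factor of limb and tooth buds, ran from 6.44 to 7.78 over all 57 arrays, and Nkx2-9 from 6.32 to 7.94. Tlx2, of the enteric nervous system, ran from 5.91 to 7.90, Emx1 from 5.54 to 7.39, Dlx3 from 5.06 to 6.93 and Lbx1, of migrating muscle precursors, from 5.33 to 7.14. Barx1 ran from 4.93 to 6.62, Lhx4 from 5.04 to 6.46 and Six5 from 5.65 to 7.12. Alx4 (4.07 to 5.53), Irx2 (4.49 to 5.88) and Otx2os1 (4.28 to 6.14) lay above the 40th percentile on 5, 21 and 9 arrays. The highest value lay on a narrow array for all of these but Six5, which was highest on CA10 thymus 3. By contrast the members with the widest ranges, Pax6 (5.50 log2 units), Lhx2 (5.12), Prrx1 (4.02), Pax1 (3.99) and Six4 (3.06), had their highest values on other arrays.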

How the data were processed

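Trizol RNA, 100 ng per array, was biotin labelled for Affymetrix mouse arrays, per the labels. The authors deposited log2 values made with RMA, per the submitters' processing notes, for 44943 probe sets on 57 arrays; the version was not given in the sources used here. RMA gives arrays that are normalized together one distribution, but the medians of these arrays ran from 5.44 to 5.85. Each gene took its highest-mean probe set among those naming 1 gene. Genes above the 40th percentile of their array on at least 3 arrays were tested, 15311 in all.

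Differences were tested with limma 3.58.1 in R 4.3.3, with 1 mean per group and a shared variance within each tissue, and over all 57 arrays for wild-type tissues and for the F tests between tissues. P-values were adjusted by Benjamini-Hochberg across the whole set of tested genes and 0.05 was the threshold. The fit was tested on simulated data. Where 1 wild-type spleen was left out, the lone one was assumed to vary like the other groups. Comparisons within a tissue share their controls, as do all against wild-type spleen.

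Genes named are the members that passed in a transgene or leukemia comparison, up to 4 with the largest change in each direction in each wild-type tissue comparison, and the highest member of each family. Cofactors are named where they passed beside a member; exceptions are stated. The members and marker lists were chosen with earlier results of these data known. Same-numbered arrays deviated together in lineage-negative marrow, where correlations of their deviations were 0.20 to 0.70 for CA10 and 0.21 to 0.74 for NHD13 with wild type. In the other tissues the numbers did not pair the arrays. Array signals limit the precision by the number of arrays. Figures were drawn with matplotlib 3.10.9.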

Additional observations from a re-analysis of the deposited data

Results flagged for a closer look

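The effect of NHD13 on Lhx2 differed between lineage-negative marrow, whole marrow and thymus, with an adjusted p of 0.00199 in limma's F test. Lhx2 passed the filter only through NHD13 thymus, so the test is not independent of the filter. The 30 genes named by the rule were also checked for a single array far from the rest of its group, in the 6 groups of 4 to 7 arrays. Of 180 checks 12 stood out, where chance gives about 1 in 20, and 4 of the 12 lie on a single narrow array, wild-type thymus 6. Pax6, added after its values were seen and so outside that count, stood out at 10.1 on NHD13 leukemic spleen 3. In NHD13 leukemic spleen the others were Lhx2 at 5.43 on array 5, Lhx4 at 6.1 on array 1 and Six5 at 5.65 on array 2. In CA10 leukemic spleen they were Pitx1 at 6.95 on array 5, Nkx2-4 at 5.11 on array 3 and Dlx4 at 4.55 on array 6. In wild-type thymus the narrow array 6 stood out for Msx1 at 7.35, Six3 at 6.41, Barx1 at 6.38 and Irx2 at 5.5. Pax8 stood out at 4.66 on healthy CA10 spleen 1 and at 4.61 on wild-type whole marrow 1.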

How the results depend on the processing

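Counts are of members that passed, without the share of all genes in the same setting. Averaging all probe sets of a gene gave 0 for CA10 leukemic against wild-type spleen, 5 for NHD13 leukemic against wild-type spleen and 2 for wild-type spleen against whole marrow. A fit of only the groups compared gave 5 for NHD13 leukemic against wild-type spleen, 3 between the leukemias and 0 for CA10 against NHD13 thymus. Quantile normalization gave 3 between the leukemias, 0 for CA10 against NHD13 thymus, 1 for C57B6 against other marrow and 8 for lineage-negative against whole marrow, and no filter gave 0 for CA10 against NHD13 thymus. The replicate number as a block gave 1 for CA10 leukemic against healthy spleen, 37 for CA10 whole marrow, 0 for NHD13 against wild-type thymus, 0 for CA10 against NHD13 thymus and 2 for wild-type spleen against whole marrow. In these tissues arrays share only a number, and a block over groups of unequal size leaves arrays without a partner. The block changed no count in lineage-negative marrow, where the numbers pair the arrays. Other controls gave 27 (C57B6) and 37 (wild-type 1 to 3) for CA10 whole marrow and 1 (C57B6) and 34 (wild-type 4 to 6) for NHD13 whole marrow. Without narrow arrays, chosen after the data were seen, the counts were 12 for thymus and 10 for lineage-negative against whole marrow. The causes were not tested.

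Leaving out 1 array gave 0 to 1 for CA10 leukemic against wild-type spleen, 2 to 8 for NHD13, 2 to 6 between the leukemias, 0 to 1 for CA10 leukemic against healthy spleen, 0 to 7 for C57B6 marrow, 0 to 1 for CA10 against NHD13 thymus, 1 to 7 for spleen, 26 to 40 for thymus and 1 to 6 for lineage-negative against whole marrow. Other probe sets of a gene turned the sign of Prrx1 in CA10 leukemia (0.0088 and 0.13 log2 units), Nkx2-3 (0.35 and 0.12) and Six3 (0.19 and 0.13) in NHD13 leukemia, and Nkx2-4 between the leukemias (-0.024). Against whole marrow they turned Pax8 (0.020) and Prrx1 (-0.019, -0.032 and -0.056) in spleen, Prrx1 (-0.013) and Six4 (-0.094) in thymus, and Pax8 in lineage-negative marrow (0.45).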
